A study of Homo sapiens with 11 samples.

Results

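RAB proteins are small GTPases that give membrane compartments their identity. In the GTP-bound form they sit on a vesicle or organelle through prenyl groups and recruit effectors such as tethers and motors; exchange factors load them with GTP, and TBC domain proteins make them hydrolyse it. In lymphocytes and their precursors, RAB proteins carry surface receptors through endosomes, move cargo from the endoplasmic reticulum to the Golgi and feed lysosomes and secretory granules. The genes described here are the protein-coding genes whose symbol is RAB followed by digits and an optional letter, which gave 63 of the 20020 protein-coding gene symbols in the GENCODE release 44 annotation.

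The series mapped Ikaros, the zinc-finger transcription factor encoded by IKZF1, by chromatin immunoprecipitation and sequencing in precursor B-cell acute lymphoblastic leukaemia lines. CX-4945 is an inhibitor of casein kinase CK2, and the stated aim included its effect on Ikaros binding in JM1. The 11 libraries were 6 Ikaros libraries and 5 inputs, and 5 peak lists were analysed: JM1 cells kept for 1 day in 20 µM CX-4945, REH and JM1 cells without it, Nalm6 cells given the same dose for the same time, and 697 cells without it. The JM1 and REH libraries were made with a Bethyl Ikaros antibody, whereas Nalm6 and 697 were precipitated with an affinity-purified one. Untreated Nalm6 and treated REH and 697 were not analysed here. Each line is an established culture grown from 1 leukaemia, and each condition had 1 list. There was therefore no replicate error and no test, and the intervals below, exact Clopper-Pearson at 95%, cover counting error only.

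The lists held 88692 peaks in CX-4945 JM1, 83563 in REH, 37448 in untreated JM1, 70894 in CX-4945 Nalm6 and 19652 in 697. A longer list covers more genes of any kind, and read depth was not analysed here, so each RAB count is set beside the same count over all protein-coding genes. A promoter peak is a peak with any base within 1000 bp of a transcription start site (TSS). Of 12 B-cell marker genes, 12, 11, 10, 11 and 4 had one, in the order of the lists above, against 9, 9, 7, 9 and 7 of 10 neuronal markers and 8, 8, 8, 8 and 4 of 10 epithelial and liver markers. Peaks at markers therefore did not set a B-cell identity apart from other tissues, and a peak is no measure of expression.

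Most RAB genes carried an Ikaros promoter peak. In CX-4945 JM1, 58 of 63 did (92.1%, interval 82.4 to 97.4%), where 81.2% of all protein-coding genes did. In REH the count was 60 (95.2%, 86.7 to 99.0%), against 81.8% of all coding genes, and in untreated JM1 it was 43 (68.3%, 55.3 to 79.4%), against 58.8%. CX-4945 Nalm6 had 54 (85.7%, 74.6 to 93.3%), against 74.4%, and 697 had 34 (54.0%, 40.9 to 66.6%), against 49.5%. The RAB share was thus the higher one in every list. The intervals treat the 63 genes as independent, although many are paralogues, so they give no test against the background share. Other small GTPases also stood above the background shares: of 27 RAS subfamily genes 25, 25, 19, 25 and 20 had a promoter peak in the same order of lists, and of 26 ARF and SAR genes 23, 25, 19, 21 and 15.

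Promoter composition moved with these counts. The GC content within 500 bp of the canonical TSS had a median of 65.4% over the 63 RAB genes and 61.3% over all coding genes. Of the 32 RAB genes at or above the RAB median, 32 had a promoter peak in CX-4945 JM1, 32 in REH, 29 in untreated JM1, 32 in Nalm6 and 26 in 697. All coding genes in that GC range were covered at 98.5, 98.3, 89.0, 97.2 and 90.7%. Of the 31 RAB genes below the median, 26, 28, 14, 22 and 8 had a peak, where coding genes in that range had 72.7, 73.6, 43.8, 63.0 and 28.9%. In the upper GC range the RAB genes thus stood close to other coding genes, and under them in 697. In the lower range they stood above other coding genes in CX-4945 JM1, REH and Nalm6. There they were close to other coding genes in untreated JM1 and slightly under them in 697. GC was not matched within the lower range. Coding genes there reached down to 25.1%, and RAB genes other than RAB40A (31.6%) to 52.3%. The part of GC content in the counts was not tested, and this split was added after values had been seen.

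**Figure D1:**
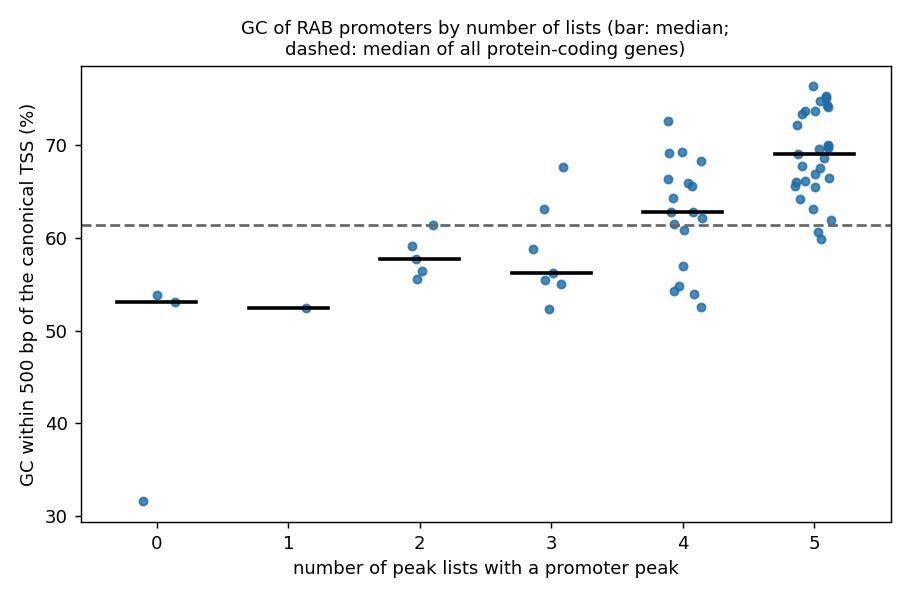
GC content (%) within 500 bp of the canonical TSS of each RAB gene, by the number of peak lists, 0 to 5, in which it had a promoter peak. Points are genes, black bars are medians and the dashed line is the median of all protein-coding genes (61.3%); the 29 genes with a peak in all 5 lists have a median of 69.0%.

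The 29 RAB genes with a promoter peak in all 5 lists made up 46.0% of the family (33.4 to 59.1%), where 41.8% of all coding genes had one in all 5. Their GC median was 69.0%, against 62.1% for the 25 genes in 3 or 4 lists and 55.5% for the 9 genes in 0 to 2 lists. They include both RAB1 genes, which control transport from the endoplasmic reticulum to the Golgi, both RAB11 genes of the recycling endosome, and 3 of 4 RAB3 genes of regulated exocytosis. Of these, RAB1B, RAB3A and RAB11B left the set when the peak centre had to lie within 1000 bp of a start. RAB1A and RAB11A left it when scores of at least 15 were required. The best RAB1B peaks were 3489 to 9128 bp wide and carried other gene names. The best RAB11A peak of each list lay at an upstream start shared with DENND4A, by which the authors named it. In 697 no peak lay within 1000 bp of the canonical RAB11A start. Another 13 genes had a promoter peak in every list except 697, the shortest. Among the 13 were all 3 RAB5 genes, which drive early endosome fusion, and both RAB8 genes, which carry vesicles to the plasma membrane and cilium. For 27 of the 29 genes the best-scored promoter peaks of the 5 lists shared a common stretch of 187 to 3373 bp (median 610 bp), which covered an annotated TSS in 19; for RAB3A and RAB40C the 5 peaks did not all overlap.

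To compare strength, each gene's best-scored promoter peak was ranked by the authors' score among the best promoter peaks of all coding genes in the same list. The score scale is not known to be common to the lists, so a percentile from 0 to 100 within a list is used. The RAB median percentile was 61.2 in CX-4945 JM1, 52.9 in REH, 51.7 in untreated JM1, 50.1 in Nalm6 and 58.9 in 697. Over all coding genes it was 51.0, 49.8, 51.7, 50.2 and 49.5. RAB peaks were thus present at more promoters but were of middling rank in REH, untreated JM1 and Nalm6, and about 10 percentile points above the middle in the other two lists.

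**Figure D2:**
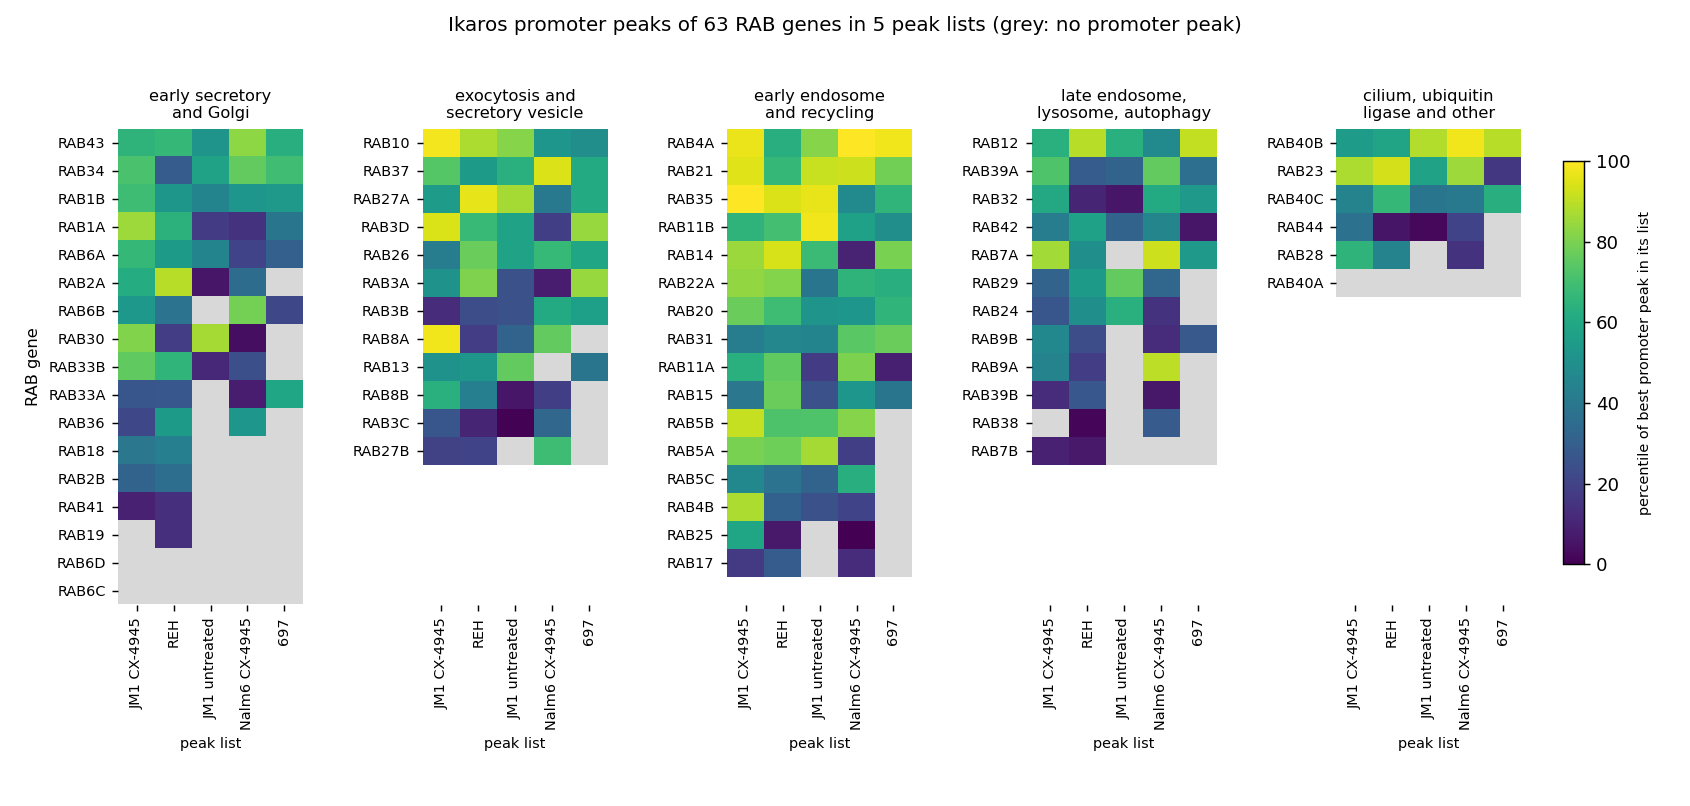
Within-list percentile (colour, 0 to 100) of the best-scored promoter peak of each of the 63 RAB genes (rows, grouped by role) in the 5 peak lists (columns); grey marks no promoter peak. RAB6C, RAB6D and RAB40A are grey throughout, and the column of 697 holds the most grey.

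Among genes with a peak in all 5 lists, RAB4A had the highest mean percentile (88.0). RAB4A returns receptors from early endosomes rapidly to the cell surface. Its promoter peak scored 126 in CX-4945 JM1, 56 in REH, 26 in untreated JM1, 122 in Nalm6 and 80 in 697. These stood at the 97.2, 63.2, 81.8, 99.97 and 97.8 percentiles, so REH ranked it lowest and the other 4 lists placed it above 80. The peaks covered the TSS, and their centres lay within 54 bp of it.

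The promoter windows of 3 genes are shown here because they stand for a peak in all 5 lists (RAB4A), in every list except untreated JM1 (RAB7A, described below) and in none (RAB6C). They are RefSeq windows of build GRCh38.p14, 250 bases before to 50 after the start, 5′ to 3′ on the gene's strand, with the Ikaros core GGGAA or its complement TTCCC in capitals. RAB4A lies at chr1:229270861-229271160 (+), RAB7A at chr3:128725933-128726232 (+) and RAB6C at chr2:129979416-129979715 (+).
RAB4A: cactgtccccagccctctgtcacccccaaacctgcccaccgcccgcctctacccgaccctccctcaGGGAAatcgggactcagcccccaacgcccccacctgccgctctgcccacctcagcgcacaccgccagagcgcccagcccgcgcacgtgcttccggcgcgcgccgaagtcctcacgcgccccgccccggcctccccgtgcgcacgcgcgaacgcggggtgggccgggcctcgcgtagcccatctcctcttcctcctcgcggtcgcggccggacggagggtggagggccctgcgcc
RAB7A: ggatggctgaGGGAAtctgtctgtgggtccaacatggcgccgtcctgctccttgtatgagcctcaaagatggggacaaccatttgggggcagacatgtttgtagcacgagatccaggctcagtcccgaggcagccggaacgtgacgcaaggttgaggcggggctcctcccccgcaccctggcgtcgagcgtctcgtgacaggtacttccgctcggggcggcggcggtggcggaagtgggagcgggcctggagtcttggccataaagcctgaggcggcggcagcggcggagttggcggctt
RAB6C: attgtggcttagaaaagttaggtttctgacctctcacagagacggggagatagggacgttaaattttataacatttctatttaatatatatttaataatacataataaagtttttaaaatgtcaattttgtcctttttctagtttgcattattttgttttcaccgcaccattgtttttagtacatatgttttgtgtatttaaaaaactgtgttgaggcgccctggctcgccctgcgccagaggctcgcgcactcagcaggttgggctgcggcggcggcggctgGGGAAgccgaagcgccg

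Each of these windows held 1 GGGAA match and 0 TGGGAA matches on either strand, so the core was present in the window without a peak as well as in those with one. The RAB6C window differed in composition, with long runs of a and t before the start.

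RAB35, which sends recycling cargo to the plasma membrane and acts in cytokinesis, had the highest-ranked RAB peak of the CX-4945 JM1 list and one of the highest in untreated JM1. It scored 497 in CX-4945 JM1, 109 in REH, 38 in untreated JM1, 37 in Nalm6 and 37 in 697, at the 99.9, 94.8, 96.5, 47.7 and 65.3 percentiles. The 3 lists made with the Bethyl antibody ranked it near the top and the other 2 in the middle. Antibody and cell line change together between those lists, so their parts cannot be told apart. The stretch common to all 5 peaks, chr12:120116356-120117260 in GRCh38, was 905 bp long and covered the TSS. The middle of that stretch is shown as the sequence shared by the peaks of the highest-scoring gene, a choice made after its values were seen. It is on the plus strand, whereas the gene lies on the minus strand, at chr12:120116659-120116958, with TTCCC in capitals.
RAB35: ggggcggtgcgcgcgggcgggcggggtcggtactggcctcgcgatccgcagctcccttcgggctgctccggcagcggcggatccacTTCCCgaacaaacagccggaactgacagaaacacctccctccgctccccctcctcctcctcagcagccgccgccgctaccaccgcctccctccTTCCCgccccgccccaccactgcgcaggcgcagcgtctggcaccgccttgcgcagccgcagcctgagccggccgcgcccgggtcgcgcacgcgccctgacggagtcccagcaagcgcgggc

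This stretch held 2 matches to GGGAA, both on the complementary strand, and 0 to TGGGAA. The authors named the CX-4945 JM1 and Nalm6 peaks with another gene name, AC004812.2, and those of the other 3 lists for RAB35.

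RAB21 (mean percentile 84.8), which traffics integrins through endosomes, scored 102 in CX-4945 JM1, 59 in REH, 31 in untreated JM1, 66 in Nalm6 and 45 in 697. It stood above the 90th percentile in both JM1 lists and Nalm6 and at 66.6 in REH and 78.6 in 697. RAB40B (77.9), a substrate adaptor of a cullin ubiquitin ligase, scored 38, 52, 29, 82 and 56 in the same order. Its rank was highest in Nalm6 (98.0) and lowest in CX-4945 JM1 (55.1). The genes RAB10 (74.0), an exocytic RAB, RAB12 (70.9), which directs transferrin receptor to lysosomes, RAB37 (69.4), found on secretory granules, and RAB23 (68.1), an inhibitor of Hedgehog signalling at the cilium, completed the first 8. RAB23 varied most among these 4: it scored 73 in CX-4945 JM1, 103 in REH, 20 in untreated JM1, 58 in Nalm6 and 18 in 697, at the 87.9, 93.4, 57.8, 85.2 and 16.1 percentiles. RAB5B of the early endosome averaged 79.3 but over 4 lists, with no promoter peak in 697.

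By role, the early endosome and the exocytosis genes had the highest shares in untreated JM1 and 697. The background shares for these counts are 81.2% of all coding genes in CX-4945 JM1, 81.8% in REH, 58.8% in untreated JM1, 74.4% in Nalm6 and 49.5% in 697. All 16 early endosome and recycling RABs had a promoter peak in CX-4945 JM1, REH and Nalm6, with 14 in untreated JM1 and 10 in 697. Of 12 exocytosis and secretory vesicle RABs, 12 had one in CX-4945 JM1, 12 in REH, 11 in untreated JM1, 11 in Nalm6 and 8 in 697. The 17 early secretory and Golgi RABs, which hold RAB6C and RAB6D, had 14, 15, 8, 11 and 7 in the same order, below the background in untreated JM1 (47.1%), Nalm6 (64.7%) and 697 (41.2%). Late endosome, lysosome and autophagy RABs numbered 12, with 11, 12, 6, 11 and 6, and the 6 of 12 in untreated JM1 were below the background. Of the remaining 6 genes of cilium, ubiquitin ligase and other roles, 5, 5, 4, 5 and 3 had a peak. The early endosome list also had the highest median percentile of the 5 role lists in CX-4945 JM1 (78.4), REH (69.4), untreated JM1 (59.9), Nalm6 (54.9) and 697 (65.3). These are descriptions of small lists whose genes were chosen with earlier results known.

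Of the proteins that act on RABs, exchange factors, GTPase activating proteins and effectors each stood above the shares of all coding genes (81.2, 81.8, 58.8, 74.4 and 49.5% in CX-4945 JM1, REH, untreated JM1, Nalm6 and 697). Of 36 exchange factors, 35, 35, 31, 32 and 25 had a promoter peak in CX-4945 JM1, REH, untreated JM1, Nalm6 and 697. Of 38 TBC domain GTPase activating proteins the counts were 36, 36, 29, 33 and 26, and of 36 effectors 34, 33, 28, 32 and 28. A gene counts by any of its annotated starts. The median number of starts was 10.5 for exchange factors, 9 for GTPase activating proteins and 9 for effectors, against 5 over all coding genes. The part of this in the counts was not tested. The 9 prenylation and recycling factors had 7, 7, 6, 7 and 6, below the background in CX-4945 JM1 and REH (77.8% in both). RABIF, a chaperone of nucleotide-free RABs, scored 378 in CX-4945 JM1, 88 in REH, 27 in untreated JM1, 52 in Nalm6 and 45 in 697. RABEP1, the RAB5 effector rabaptin, scored 214, 129, 102, 65 and 52. CHM (RAB escort protein), CCZ1 (an exchange factor for RAB7) and the effectors SYTL3 and SYTL5 had no promoter peak in any list.

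**Figure D3:**
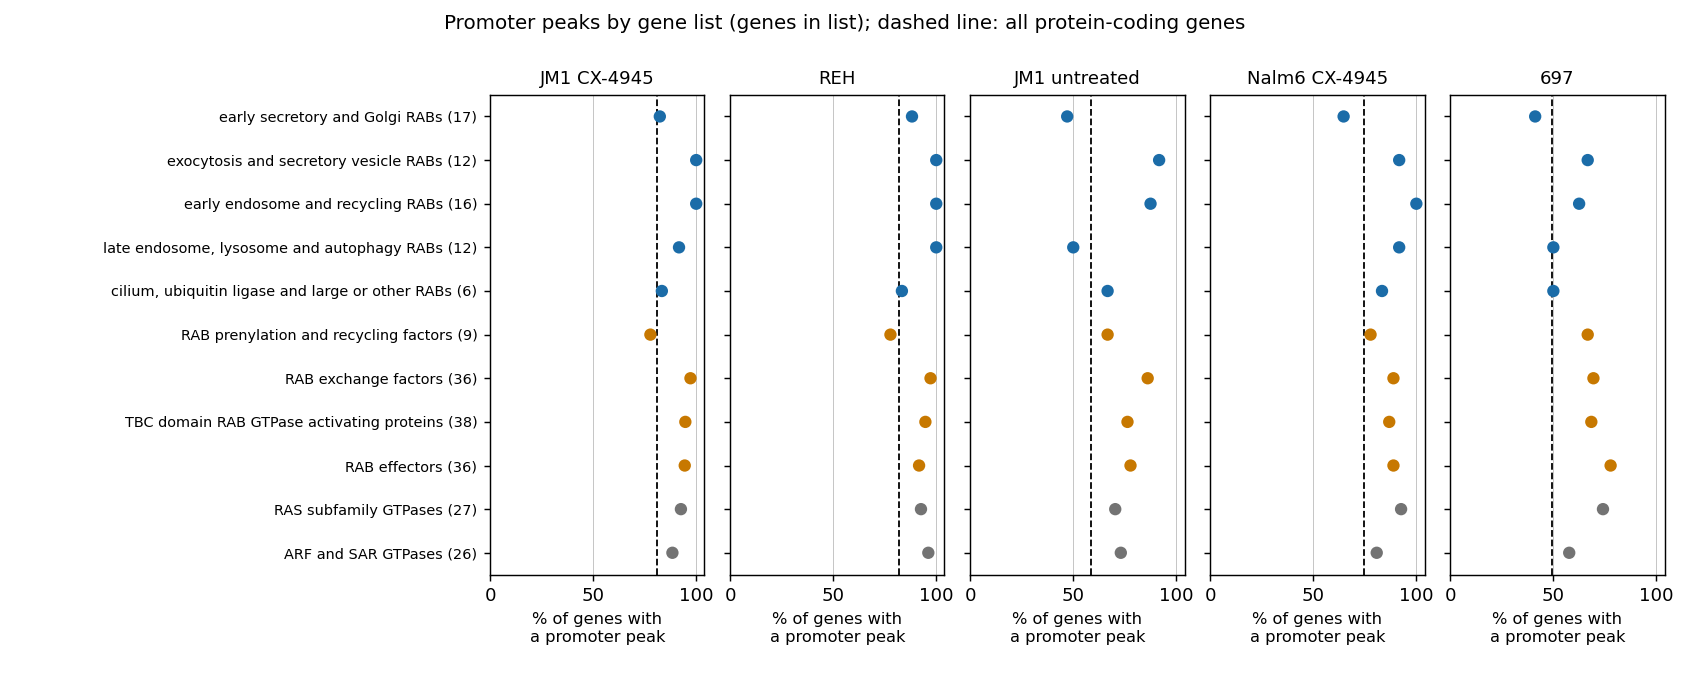
Share (%) of the genes of each list with a promoter peak, 1 panel per peak list. Blue points are RAB genes by role, orange points the proteins that act on RABs and grey points other small GTPase families, with the number of genes in brackets; the dashed line is the share over all protein-coding genes (81.2, 81.8, 58.8, 74.4 and 49.5% from left to right).

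In the JM1 comparison, which asked how CK2 inhibition changes Ikaros binding, 43 RAB genes had a promoter peak in both lists, where 58.3% of all coding genes did. Another 15 (23.8%, 14.0 to 36.2%) had one with CX-4945 alone, where 23.0% of all coding genes did. The untreated list alone held 0 (up to 5.69%), where 0.564% of all coding genes had a peak there alone, and 5 RAB genes had one in neither (7.94%), where 18.2% did. The RAB share with CX-4945 alone was near the background, so it was not particular to RAB genes. The list was 88692 peaks long with CX-4945 and 37448 without.

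RAB7A, which takes late endosomes to lysosomes, ranked highest of the 15 in the treated list. Its promoter peak scored 69 in CX-4945 JM1 (86.3 percentile), 46 in REH, 66 in Nalm6 and 32 in 697, and untreated JM1 was the only list without one. In untreated JM1 the authors gave RAB7A a peak upstream of the window, at chr3:128722608-128723271 in GRCh38, with a score of 13. RAB6B (score 37 in CX-4945 JM1), a Golgi RAB abundant in brain, RAB9B (34), of transport from endosomes back to the Golgi, and RAB33A (26), a Golgi RAB, likewise had a promoter peak in every list except untreated JM1.

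RAB28 (44), known from the cilia of cone photoreceptors, RAB25 (40), an epithelial relative of RAB11, RAB9A (33), which acts with RAB9B, and RAB36 (24), found at the Golgi, had one in CX-4945 JM1, REH and Nalm6 alone. The treated RAB25 peak was 15019 bp wide and came within 1000 bp of starts of LMNA and MEX3A, whereas the RAB25 peaks of REH and Nalm6 were 483 and 385 bp wide at its own canonical start. RAB18 (31), of the endoplasmic reticulum and lipid droplets, and RAB2B (28), of transport between the endoplasmic reticulum and Golgi, had one in CX-4945 JM1 and REH alone. The RAB2B peak also lay at the start of TOX4, by which the authors named it. The other 5, RAB7B, RAB17, RAB27B, RAB39B and RAB41, ranked between the 8.99 and 19.3 percentiles of the treated list. Untreated JM1 peaks named for RAB17 (score 15, 377 bp wide) and RAB7B (score 11, 1220 bp) overlapped the treated promoter peaks of these genes. The treated peaks were 4163 and 2811 bp wide and came within 1000 bp of a start, whereas the untreated ones did not. The place of RAB17 and RAB7B among the 15 thus rests on how far a peak extends. RAB36 also had an untreated JM1 peak, outside the window, with a score of 12.

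All 15 had a promoter peak in REH, a line that received no CX-4945. Of the 4604 coding genes with a promoter peak in CX-4945 JM1 and none in untreated JM1, 89.7% also had one in REH, so this was common to most such genes. Of the 6 X-linked RAB genes, RAB9A, RAB9B, RAB33A, RAB39B, RAB40A and RAB41, 5 had a promoter peak in CX-4945 JM1, 5 in REH, 0 in untreated JM1, 4 in Nalm6 and 2 in 697. Across all coding genes, X-linked promoters were also less often covered than others in each list: 61.0 against 82.2% in CX-4945 JM1, 54.6 against 83.0% in REH, 29.6 against 60.1% in untreated JM1, 45.8 against 75.6% in Nalm6 and 27.5 against 50.5% in 697. Thus 5 of the 15 genes were X-linked, but the X-linked share of the 4604 coding genes above was not counted. The X-linked group was looked at after values had been seen.

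Where both JM1 lists held a RAB promoter peak, ranks moved in both directions. Of 43 genes, 32 had a higher percentile in the CX-4945 list and 11 a lower one, with a median difference (CX-4945 minus untreated) of 15.3 points. Over all 11662 coding genes in both lists, 55.7% had a higher percentile and the median difference was 3.90. In the treated list these genes are ranked beside the 4604 that it alone holds, which can raise their percentile.

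The greatest upward differences belonged to RAB1A, RAB8A and RAB33B. RAB1A, of transport from the endoplasmic reticulum to the Golgi, scored 67 with CX-4945 (85.4 percentile) and 14 without (17.9 percentile). Its REH, Nalm6 and 697 scores were 57, 22 and 26. RAB8A, an exocytic RAB, scored 143 with CX-4945 (98.0) and 16 without (31.9), and 28 in REH and 51 in Nalm6. RAB33B, which links the Golgi to autophagosome formation, scored 53 (75.4) and 13 (11.6).

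The greatest downward differences were those of RAB29, RAB24 and RAB40B. RAB29, which recruits the kinase LRRK2 to the Golgi, stood at the 32.0 percentile with CX-4945 (score 28) and at 76.0 without (score 24). RAB24, an autophagy RAB, stood at 26.8 (score 26) and 63.3 (score 21), and RAB40B at 55.1 (score 38) and 88.5 (score 29). Their scores were close in number in both lists, whose median over the best promoter peaks of all coding genes was 36 with CX-4945 and 19 without. RAB24 shares its peaks with the start of PRELID1.

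**Figure D4:**
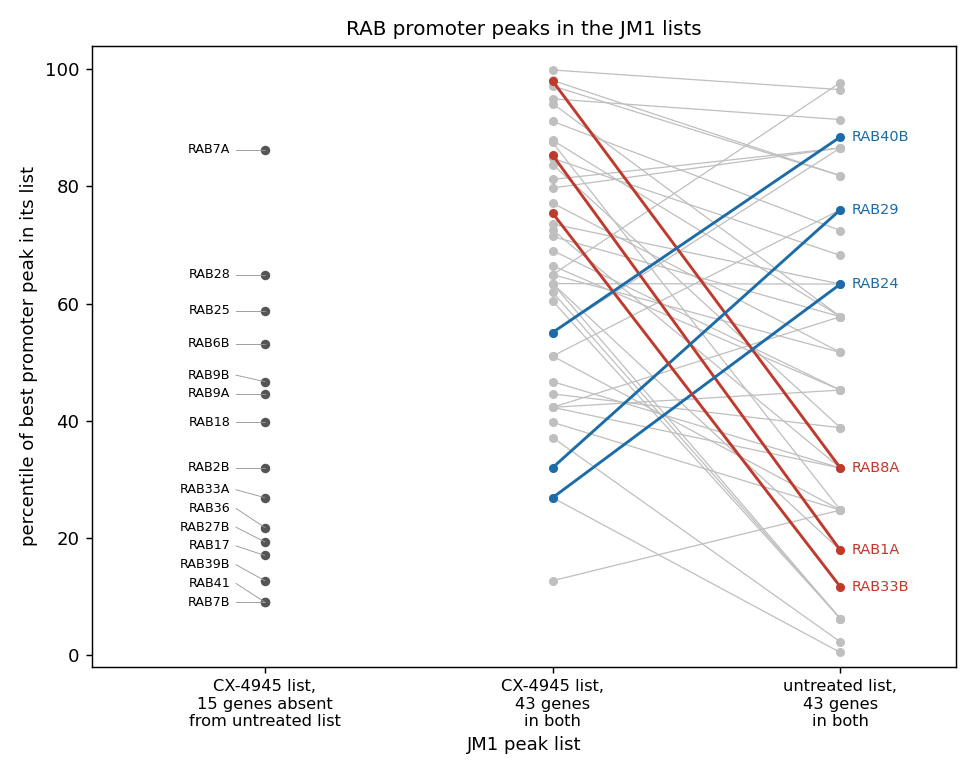
Within-list percentile of the best promoter peak of RAB genes in the JM1 lists. The left column shows the 15 genes with a promoter peak in the CX-4945 list alone; lines join the CX-4945 and untreated percentiles of the 43 genes in both, with the 3 largest differences in each direction in colour and named. Most lines fall to the right, since 32 of 43 percentiles are higher with CX-4945.

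The RefSeq windows of RAB29 and RAB40B are shown as those of the genes with the greatest downward difference and with the most peaks outside promoters. RAB29 lies at chr1:205775433-205775732 (−) and RAB40B at chr17:82698649-82698948 (−), both given 5′ to 3′ on the gene's strand with GGGAA or TTCCC in capitals. The tables held no window for RAB1A, which is named only.
RAB29: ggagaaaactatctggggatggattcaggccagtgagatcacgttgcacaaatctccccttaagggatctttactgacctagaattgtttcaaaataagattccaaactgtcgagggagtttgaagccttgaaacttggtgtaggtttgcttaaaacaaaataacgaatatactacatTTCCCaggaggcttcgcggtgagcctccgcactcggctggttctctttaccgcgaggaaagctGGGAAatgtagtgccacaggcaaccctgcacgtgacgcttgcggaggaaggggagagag
RAB40B: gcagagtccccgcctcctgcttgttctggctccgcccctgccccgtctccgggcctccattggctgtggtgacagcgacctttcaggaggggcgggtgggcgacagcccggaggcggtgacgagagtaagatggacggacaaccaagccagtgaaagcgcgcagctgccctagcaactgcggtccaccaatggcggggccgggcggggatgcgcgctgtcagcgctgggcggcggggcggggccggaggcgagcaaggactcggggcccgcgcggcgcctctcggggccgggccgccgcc

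The RAB29 window held 2 GGGAA cores, both within the longer form TGGGAA, and the peaks of CX-4945 JM1, REH and Nalm6 overlapped it, while the untreated JM1 peak lay beside it within the gene. The RAB40B window held 0 cores, although peaks of all 5 lists overlapped it.

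Between lines with the same antibody, REH and untreated JM1 shared 43 RAB genes, where 58.4% of all coding genes had a peak in both. REH alone had 17 (27.0%, 16.6 to 39.7%), where 23.5% of all coding genes did, and untreated JM1 alone had 0, where 0.455% did. The 17 were the 15 genes with a peak in CX-4945 JM1 alone of the JM1 lists, together with RAB19 and RAB38. CX-4945 Nalm6 and 697 shared 33 genes, where 48.4% of all coding genes did. Nalm6 alone had 21 (33.3%, 22.0 to 46.3%), where 26.0% did, and 697 alone had 1, RAB13, where 1.17% did. RAB13, which works at epithelial junctions, scored 36 in CX-4945 JM1, 48 in REH, 24 in untreated JM1 and 26 in 697, with none in Nalm6. In this second pair treatment and line differ together and cannot be told apart.

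Few RAB genes lacked Ikaros peaks at their starts. Only RAB6C, RAB6D and RAB40A had no promoter peak in any list (4.76%, 0.993 to 13.3%), where 14.6% of all coding genes had none. RAB6C and RAB6D are near-identical relatives of RAB6A, and RAB40A has close copies too. Whether reads can be placed at these 3 starts was not tested, so the absence of a peak there is uncertain. GC content around the start was 53.8% for RAB6C, 53.0% for RAB6D and 31.6% for RAB40A. In CX-4945 JM1 the authors gave RAB40A 1 intergenic peak, at chrX:103524304-103524611, with a score of 18. RAB19 was the only member with a promoter peak in exactly 1 list. That peak scored 25 in REH (13.5 percentile), lay 221 bp from the RAB19 start by its centre and was named for SLC37A3, which starts beside it. RAB38, of melanosome biogenesis, had peaks in REH (14) and Nalm6 (29) and in neither JM1 list.

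The RAB19 window at chr7:140403808-140404107 (+), from RefSeq GRCh38.p14, is shown as that of the gene with a peak in exactly 1 list; capitals mark its 1 core match, on the complementary strand.
RAB19: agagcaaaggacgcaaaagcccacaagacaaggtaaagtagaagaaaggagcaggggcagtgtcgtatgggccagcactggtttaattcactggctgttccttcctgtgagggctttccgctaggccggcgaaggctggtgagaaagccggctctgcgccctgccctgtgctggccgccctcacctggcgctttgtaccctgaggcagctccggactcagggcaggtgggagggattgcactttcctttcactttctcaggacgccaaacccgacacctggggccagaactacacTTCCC

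Over the family, GGGAA or its complement was found in 31 of 50 RAB windows with a RefSeq sequence (62.0%) and in 66.2% of 15345 coding gene windows of the same length. The longer TGGGAA, a subset of those matches, was found in 7 RAB windows (14.0%) and in 22.6% of all windows. Of the RAB genes with a peak in all 5 lists, 12 of 23 had GGGAA, against 19 of 27 of the others. The core in a start window therefore did not follow the number of lists. In the 300 bp at the centre of the best promoter peak, GGGAA was present in 69.0% of RAB peaks in CX-4945 JM1, 60.0% in REH, 69.8% in untreated JM1, 72.2% in Nalm6 and 61.8% in 697. Over all coding genes the shares were 66.5, 66.0, 65.6, 64.4 and 59.5%. Whole RAB peaks nearly all held it (57 of 58, 60 of 60, 41 of 43, 51 of 54 and 29 of 34), but their median widths were 1552, 1479, 1003, 1142 and 734 bp. Over all coding genes the whole best peaks held it in 97.5, 97.6, 92.9, 94.6 and 86.3%, so the RAB counts were near the background. A match is not evidence of a site.

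Many RAB peaks lay away from promoters. By gene name the authors gave RAB genes 142 peaks in CX-4945 JM1, 132 in REH, 69 in untreated JM1, 121 in Nalm6 and 38 in 697. Of these, 78.2% (70.5 to 84.7%), 76.5% (68.4 to 83.5%), 55.1% (42.6 to 67.1%), 73.6% (64.8 to 81.2%) and 39.5% (24.0 to 56.6%) fell outside the authors' promoter class. Over all peaks the shares were 83.9, 83.1, 73.7, 80.8 and 59.3%. Of the classes outside promoters, introns held the most in every list but 697, with 68 of 142 in CX-4945 JM1, 58 of 132 in REH, 26 of 69 in untreated JM1, 59 of 121 in Nalm6 and 6 of 38 in 697, where exons held 8. Introns held 40.7, 40.4, 34.7, 38.6 and 24.5% of all peaks in the same order, and exons 12.6% of all peaks in 697. The authors' class goes by more than distance from a start, since 31, 34, 16, 26 and 11 of the peaks outside it lay within 1000 bp of a TSS of their gene.

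**Figure D5:**
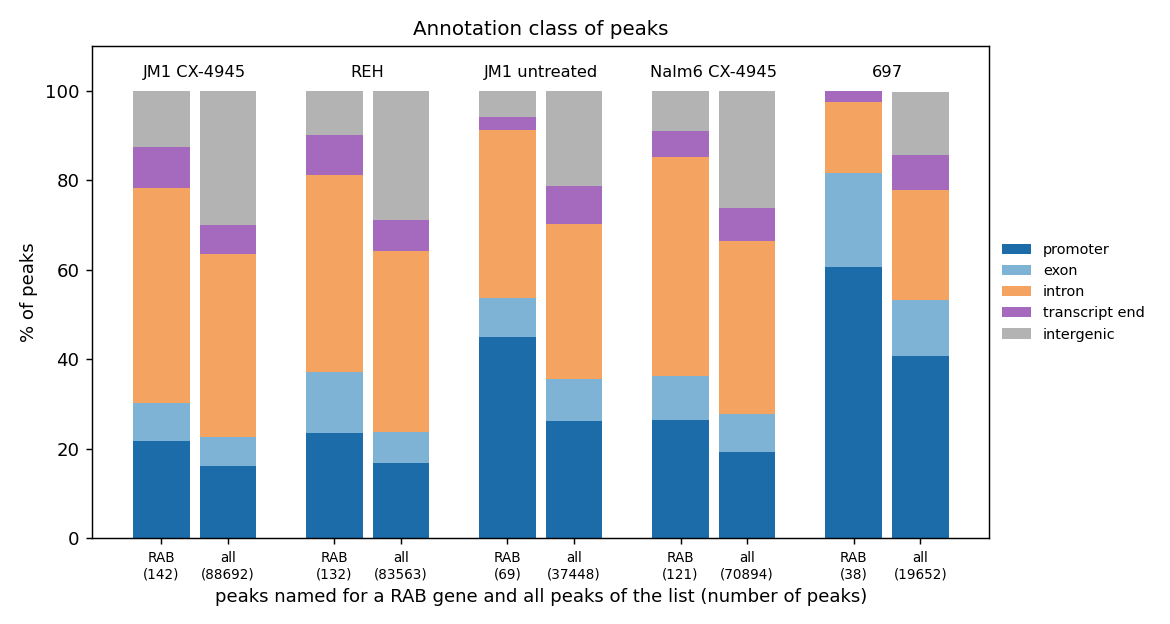
Annotation class of peaks (stacked shares, %, by the authors' classes) for peaks named for a RAB gene (left bar of each pair) and for all peaks of the list (right bar), with the number of peaks below. The promoter share of RAB peaks is the higher one in each pair, and 697 has the highest promoter shares.

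Away from any TSS of their gene by more than 1000 bp were 81 RAB peaks in CX-4945 JM1, 67 in REH, 22 in untreated JM1, 63 in Nalm6 and 4 in 697. These counts followed the order of list length. They and the loci below were counted for RAB genes only, so no share over all peaks stands beside them. Whether they are particular to RAB genes was not tested. Merged across lists they made 124 loci named for 42 RAB genes, of which 65 were found in 1 list, 9 in 4 lists and 1 in all 5. That locus, chr17:42163098-42167732 in GRCh38, carries the name RAB5C but lies in the body of KCNH4, a potassium channel gene next to RAB5C. It scored 40 in CX-4945 JM1, 23 in REH, 11 in untreated JM1, 21 in Nalm6 and 12 in 697.

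RAB40B had the most peaks outside the promoter class, 28 over the 5 lists, followed by RAB20 of phagosomes with 19 and by RAB37, RAB40C (a relative of RAB40B) and RAB7B (a late endosome RAB) with 18 each. By list the 28 were 6 in CX-4945 JM1, 8 in REH, 4 in untreated JM1, 6 in Nalm6 and 4 in 697, and 19 of the 28 were in introns. They include the best RAB40B promoter peak of each list, which covered a TSS but was classed as intron or, in 697, exon. A locus found in several lists counts once in each. An intronic RAB40B locus at chr17:82691011-82693484 scored 35 in CX-4945 JM1, 14 in REH, 38 in Nalm6 and 13 in 697 and was absent from untreated JM1. A second, at chr17:82683993-82687795, scored 17, 29, 15 and 24 in CX-4945 JM1, REH, untreated JM1 and Nalm6 and was absent from 697.

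Limits of the counting rule bear on these values. Counting a RAB gene only where a peak of the authors' promoter class carries its name gave 30 genes in CX-4945 JM1 and 28 in REH, with 10 genes in CX-4945 JM1 alone and 9 in untreated JM1 alone, and 7 in all 5 lists. By that rule the 2 JM1 lists thus differed little in the number of genes each held alone. All 9 genes nevertheless had a CX-4945 JM1 peak within 1000 bp of a start. The best such peak carried another gene name or was classed outside promoters, so the 9 do not lack a treated promoter peak. With each list limited to its 19652 highest-scored peaks, 17 RAB genes were in CX-4945 JM1 alone, 9 of them among the 15, and 1 in untreated JM1 alone. These counts were made for RAB genes only. Without a share over all coding genes they do not show whether RAB genes differ from the background under either rule.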

How the data were processed

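Chromatin immunoprecipitation with an Ikaros antibody and sequencing was done in 4 cell lines, and 5 peak lists were analysed, grouped by the line and treatment in the labels. The single Nalm6 list may rest on 1 or both of the 2 Nalm6 Ikaros libraries, since no source used here says which. Per the labels' protocols, BBDuk trimmed the reads. The submitters' processing notes list HOMER 4.10, MACS2 2.1.1, Bowtie2 2.3.4.3 and, as genome, GRCh38. The authors' deposited lists give each peak's coordinates and a score in whole numbers, with a class and a gene name for most; 0 to 3103 peaks of a list had no name and 0 to 43 no class. Scores began at 10 in each list. What the score measures, and with which settings and controls peaks were called, is not given in the sources used. Scores were compared within a list only, as percentiles, and values from different lists are set side by side without a scale common to them. Read depth was not analysed here.

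TSSs were those of all GENCODE release 44 transcripts of protein-coding genes. Peaks were given to a gene when any base lay within 1000 bp of a TSS, so 1 peak can count for several genes, and the gene's best-scored peak was kept. RAB genes were also followed by the gene name in the files. The overlap code was tested on simulated data. Promoter windows came from RefSeq, GRCh38.p14, and 50 of 63 RAB genes matched one. Python 3.11.15 with pandas 2.3.3, numpy 2.4.6, scipy 1.17.1 and matplotlib 3.10.9 was used.

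The RAB genes, the role lists and the comparisons were chosen with earlier results of these data known. Genes were named by rule: the 8 with a peak in all 5 lists and the highest mean percentile, the 10 highest of those with CX-4945 alone in JM1, all with a peak in 1 list or none, the 5 with most peaks outside promoters and the 3 greatest rank differences each way. All other genes and loci named, such as RAB5B, RAB13, RAB38, the RAB1, RAB3, RAB5, RAB8 and RAB11 genes, the regulators RABIF, RABEP1, RABGGTB, CHM, CCZ1, SYTL3 and SYTL5, and the loci away from starts, were chosen after their values were seen, as were the GC, X-linked and 300 bp peak centre splits. Alternatives were windows of 500 and 2000 bp, the peak centre, canonical TSSs, the authors' promoter class by name, scores of at least 15 and 20, and lists cut to 19652 peaks.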

Additional observations from a re-analysis of the deposited data

How the results depend on the processing

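Of 146 alternative values, 105 stayed within 1.5 times the count or inside the interval of the value they replace, and 41 did not. The alternative gene counts were made for RAB genes only, so they have no share over all coding genes beside them. The windows of 500 and 2000 bp, canonical TSSs alone and the widest promoter peak moved 0 values past those limits. Counting by peak centre within 1000 bp gave 3 RAB genes in untreated JM1 alone against CX-4945 JM1 (RAB11B, RAB24 and RAB34) and 3 against REH. Counting by the authors' promoter class and gene name moved most: 30 genes in CX-4945 JM1, 28 in REH and 31 in Nalm6, with 20 in both JM1 lists, 9 in untreated JM1 alone and 24 in neither, 11 in REH alone, 12 in untreated JM1 alone against REH, 9 in 697 alone against Nalm6, 7 in all 5 lists and 14 in none. The 9 genes in untreated JM1 alone by that rule all had a CX-4945 JM1 peak within 1000 bp of a start. With scores of at least 15, 23 genes were in CX-4945 JM1 alone. With scores of at least 20, untreated JM1 had 20 genes, 20 were in both JM1 lists, 36 in CX-4945 JM1 alone, 38 in REH alone, 4 in 697 alone and 12 in all 5. Lists of equal length gave 1 gene in untreated JM1 alone, 11 in neither JM1 list, 2 in untreated JM1 alone against REH, 10 in Nalm6 alone, 8 in 697 alone and 6 in no list. Ranked among all peaks of a list, median RAB percentiles were 92.8 in CX-4945 JM1, 90.2 in REH, 75.7 in untreated JM1, 86.1 in Nalm6 and 75.5 in 697. Peaks of RAB genes outside promoters made up 65.8% in CX-4945 JM1, 67.8% in REH, 40.0% in untreated JM1 and 61.8% in Nalm6 at scores of at least 20. The share of RAB windows with a core was 14.0% for TGGGAA, and whole peaks held GGGAA in 98.3% in CX-4945 JM1, 100% in REH, 95.3% in untreated JM1, 94.4% in Nalm6 and 85.3% in 697, while 300 bp at the peak centre, a window added after seeing the data, moved it less. The cause of these movements was not tested beyond what each construction changes. No paired analysis was possible because each condition had 1 list, which also means no list could be left out of a group.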

Other observations

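RABGGTB, the catalytic subunit of the transferase that prenylates RAB proteins, had a promoter peak in untreated JM1 (score 21, 63.3 percentile) and in none of the other 4 lists. It was 1 of 113 coding genes with a promoter peak in untreated JM1 and none in CX-4945 JM1.

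In RAB19, which had no JM1 promoter peak, an intronic CX-4945 JM1 peak at chr7:140417650-140418065 in GRCh38 scored 36. Peaks of REH and Nalm6 overlapped it with scores of 13 and 17.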
